A study of Mus musculus and Homo sapiens with 10 samples.

Results

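The loci described here are PLEC, NR2F2 and MIRLET7BHG, where long regions of H3K4me3 were called higher in MDA-MB-231-Luc cells after knockdown of CBX8. Members are the regions of the 2 human H3K4me3 lists, lower and higher, that overlap chr8:144980000-145060000 (PLEC), chr15:96860000-96890000 (NR2F2) or chr22:46440000-46515000 (MIRLET7BHG) in hg19. The loci were chosen by the direction and length of their human regions, so both are given below as a description. This gave 5 regions out of 3852 in the human lists. Chromatin immunoprecipitation and sequencing (ChIP-seq) was done on mononucleosomes released by micrococcal nuclease, in 10 libraries of which 7 were from MMTV-Myc cells and 3 from MDA-MB-231-Luc cells. Each combination of line, hairpin and antibody had 1 library, so none of the differences below has a replicate check. The human comparison set the shCBX8 library of H3K4me3 against the shScr (scrambled hairpin) library. The mouse comparisons set shCbx8 against shScr for H3K4me3, H3K27ac and H3K27me3. Per the labels' protocols, control and knockdown cells were both transduced, the Cbx8 hairpins were carried by lentivirus of the pLKO.1 type, and cells were kept under puromycin. The labels list the scrambled controls as wild type. MDA-MB-231 cells come from a human breast cancer and are a long-established line. MMTV-Myc cells are mouse mammary tumour cells named for a Myc transgene under a mammary tumour virus promoter. The number of distinct hairpins or clones behind each library, and the time between infection and harvest, are not given in the sources used here.

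H3K4me3 is laid down at active and poised promoters by SET1 and MLL methyltransferase complexes, of which WDR5 is a subunit. Most promoters carry it over a short stretch, while some genes that define a cell's identity carry it over a much longer one. CBX8 is a chromodomain subunit of Polycomb repressive complex 1, which binds H3K27me3. PLEC encodes plectin, a large cytolinker that ties intermediate filaments to hemidesmosomes and focal adhesions, and its transcripts start at several alternative first exons. NR2F2 encodes COUP-TFII, an orphan nuclear receptor known for its part in the identity of veins and in the development of several organs. MIRLET7BHG is a long non-coding RNA gene that hosts let-7 microRNAs, which repress growth-promoting messages such as those of RAS and HMGA2 genes.

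The microRNA products of the MIRLET7BHG locus are shown because they are what the host gene is known for. In the mouse RefSeq table (GRCm38.p6) the cluster on the plus strand of chromosome 15 holds Mirlet7c-2 and Mirlet7b, next to the host RNA Lncppara, for which Mirlet7bhg is listed as a synonym. Capitals mark the seed, bases 2 to 8 from the 5′ end, written 5′ to 3′.
mmu-let-7b-5p: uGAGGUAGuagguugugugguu
mmu-let-7c-5p: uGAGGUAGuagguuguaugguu
mmu-let-7b-3p: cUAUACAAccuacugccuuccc
The 2 leading-arm products are 22 bases long and differ at a single position, G17A, counted from the 5′ end of let-7b and with let-7b's base first. All 8 let-7 leading-arm sequences named let-7a to let-7i in that table shared the seed. The sequence of the human let-7a-3 and let-7b products was not used here. Without an hg19 annotation, whether the higher regions of the locus reach the human let-7 genes was not examined.

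At PLEC, 1 region was called higher and 0 were called lower. It spanned 20.1 kb (chr8:145008201-145028300), which made it the longest of the 2611 higher regions, at 11.5 times their median of 1750 bp. It began 28201 bp inside the start of the locus window and ended 31700 bp before its end. The region therefore lay in the middle of the window and filled 25.1% of its 80 kb. Only 1 of the 1241 lower regions was longer.

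At NR2F2, 1 region was again called higher and 0 lower. It spanned 16.4 kb (chr15:96867401-96883800), the second longest of the higher list and 9.37 times its median. It filled 54.7% of a locus window of 30 kb, leaving 7401 bp before it and 6200 bp after it. That share was the largest of the 3 loci, but this window was also the narrowest, and the PLEC region was longer.

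At MIRLET7BHG the signal was called in pieces, as 3 higher regions and 0 lower ones. The first spanned 3.8 kb (chr22:46439551-46443350) and reached 449 bp beyond the start of the window. The next spanned 6.45 kb (chr22:46448151-46454600), and the last 12.8 kb (chr22:46460351-46473150). These pieces grew longer with increasing coordinate, and their gaps were 4800 bp and 5750 bp. They spread over 33.6 kb, of which 68.6% was called. The last 41850 bp of the window held no listed region. A stretch without a listed region is not shown to be unchanged, because the lists hold only regions past the authors' threshold.

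**Figure D1:**
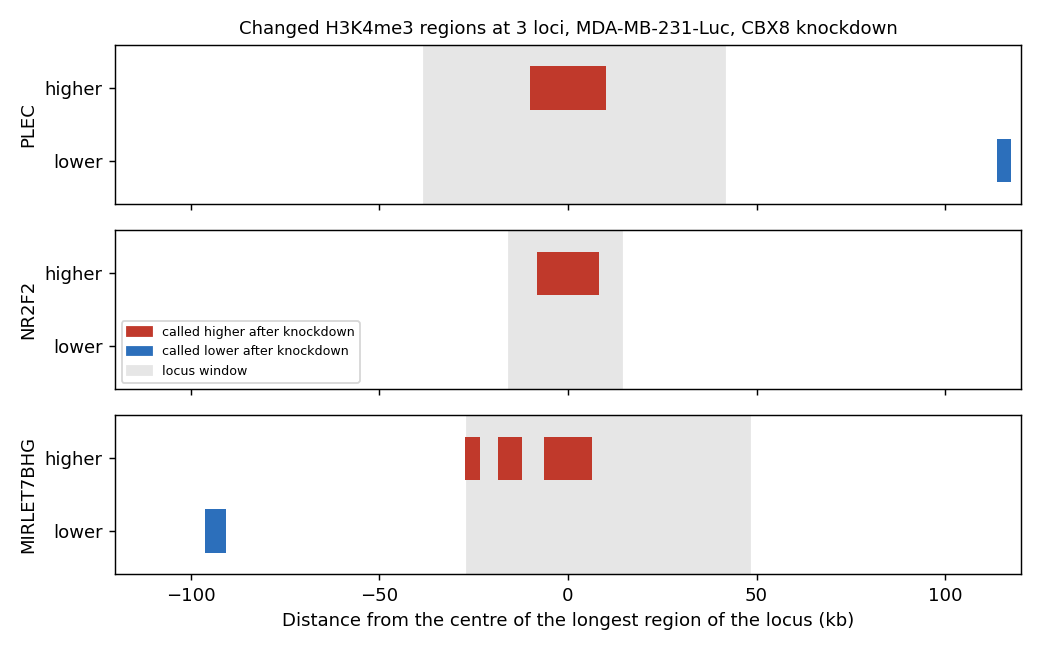
Changed H3K4me3 regions within 120 kb of the longest region of each locus. The x axis is the distance from the centre of that region in kb, each bar is 1 region drawn to scale in the row of its direction, and grey marks the locus window. PLEC and NR2F2 each show 1 unbroken higher block and MIRLET7BHG shows 3, with no lower region inside any window.

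All 5 regions were higher, in a list where 67.8% of regions were. The loci were picked for long higher regions, so nothing is read from that count. Across the human lists, windows of 80 kb that tile the span of each chromosome held a changed region in 9.64% of 37450 cases and a higher region in 6.55%. At least 3 higher regions fell in 0.0401% of such windows, or 15 of them. Higher regions filled 20% or more of a window in 3 of the 37450, or 0.00801%. The tiles take in the chosen loci themselves. The PLEC region lay within a single tile and filled more than 20% of it, and so did the MIRLET7BHG regions together. Both tiles are thus among the 3, and the MIRLET7BHG tile is also among the 15. These shares describe the lists, are no independent background, and were not used to test the loci, whose windows were placed by hand.

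The 5 regions all lay toward the long end of the higher list, where even the shortest exceeded 87.1% of regions. In rank order they stood at 1 (PLEC), 2 (NR2F2), 5, 69 and 327 (MIRLET7BHG, with 12 regions tied at 3800 bp). Together they covered 59.55 kb, which is 1.01% of all base pairs called higher from 0.191% of the regions. The shortest, of 3.8 kb, was 2.17 times the median higher region but 0.864 times the median lower region of 4400 bp. Regions of this length were common among losses, where 807 lower regions were longer.

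The higher regions just outside the choice were as long as the last one inside it. They were the third of the list, at 13.0 kb (chr10:4802051-4815050), and the one after it, at 12.9 kb (chr8:77314151-77327050). After the 12.8 kb region of MIRLET7BHG came 12.4 kb (chr1:234738001-234750400) and 12.15 kb (chr7:106407501-106419650). Long regions were mostly losses in these lists. Among the 65 regions of at least 10 kb, 52 were lower and 13 higher, and 3 of those 13 belong to the loci described here. Among the 6 regions of at least 15 kb, PLEC and NR2F2 were the 2 higher ones.

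**Figure D2:**
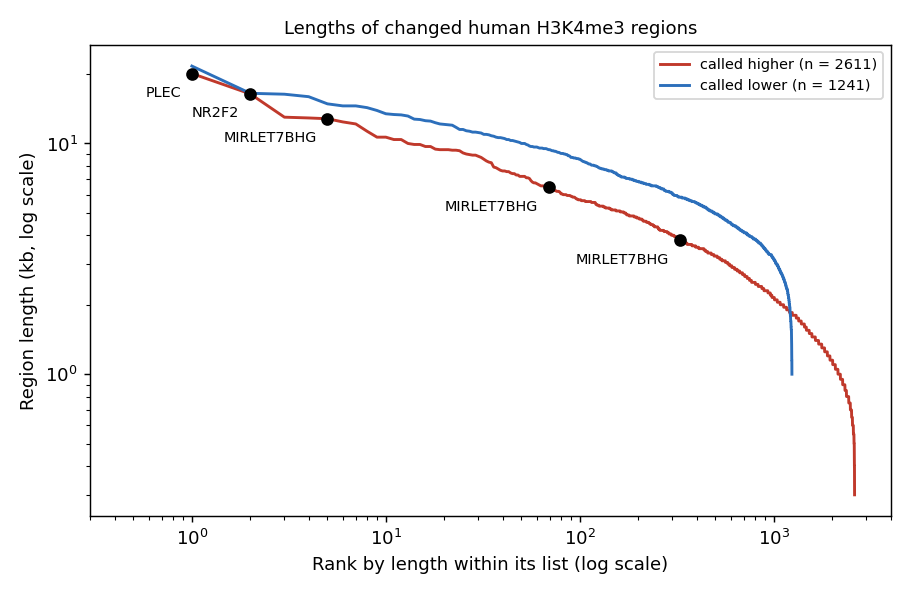
Length of each changed human H3K4me3 region (kb, log scale) against its rank within its own list (log scale), with a red line for the 2611 higher and a blue line for the 1241 lower regions. Black points are the 5 regions of the loci; PLEC lies just below the longest lower region, and the shortest MIRLET7BHG region, of 3.8 kb, ranks 327.

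Whether MIRLET7BHG is 1 broad gain or several depends on how close calls are joined. With higher regions closer than 10000 bp joined, its 3 pieces became 1 stretch of 33.6 kb. That stretch ranked 2 among 2526 joined higher regions, behind 34.75 kb at chr6:27774101-27808850. It was 1 of 3 joined stretches made of at least 3 higher regions. PLEC (20.1 kb) then ranked 3 and NR2F2 (16.4 kb) ranked 6, each still a single region. With a limit of 5000 bp, only the first gap closed, and MIRLET7BHG was 2 regions of 15.05 kb and 12.8 kb.

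The surroundings of the 3 loci did not share a direction. This comparison did not use the rule, which looked only inside the windows. Within 1 Mb on either side of the windows, and leaving the windows out, 7 regions were listed, of which 3 were higher (42.9%) against 67.8% in the whole lists. With 7 regions in all, that share is imprecise and was not tested.

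Within 1 Mb of the PLEC window, 0 further higher regions and 2 lower ones were listed. The nearer lower region spanned 3.7 kb (chr8:145132101-145135800) and began 103.8 kb after the PLEC region. On the other side the nearest higher region, of 0.95 kb, was 1226.4 kb away (chr8:143780851-143781800). The nearest lower region on that side was 8534.9 kb away. No higher region was listed on chromosome 8 beyond PLEC. On chromosome 8 as a whole, 75.0% of the 220 listed regions were higher.

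NR2F2 lay in a stretch of the chromosome where each listed region was higher. Counting outward to the first lower region or the last listed one, 10 higher regions followed one another over 4623.15 kb. Of these, 2 came before NR2F2 and 7 after it, and no lower region was listed after NR2F2 on this chromosome. Such runs were not particular to NR2F2. Counted the same way, PLEC closed a run of 4 higher regions over 8550.75 kb, and MIRLET7BHG was in a run of 4 over 260.75 kb. Its nearest higher neighbours were 0.5 kb (chr15:97137151-97137650), 253.35 kb after it, and 1.35 kb (chr15:95560901-95562250), 1305.15 kb before it. The first lower region before NR2F2 spanned 5.0 kb and lay 2089.55 kb away. Higher regions were 73.1% of the 93 on chromosome 15.

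MIRLET7BHG had a lower region close by. A loss of 5.45 kb (chr22:46370601-46376050) ended 63.5 kb before the first of the 3 higher regions. On the other side came a higher region of 1.7 kb (chr22:46698601-46700300) at 225.45 kb, then a lower one of 3.85 kb (chr22:47156501-47160350) at 683.35 kb. The preceding higher region was 2843.8 kb away. Chromosome 22 held 43 listed regions, 69.8% of them higher, so 3 of its 30 higher regions sat within the 33.6 kb of this locus.

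**Figure D3:**
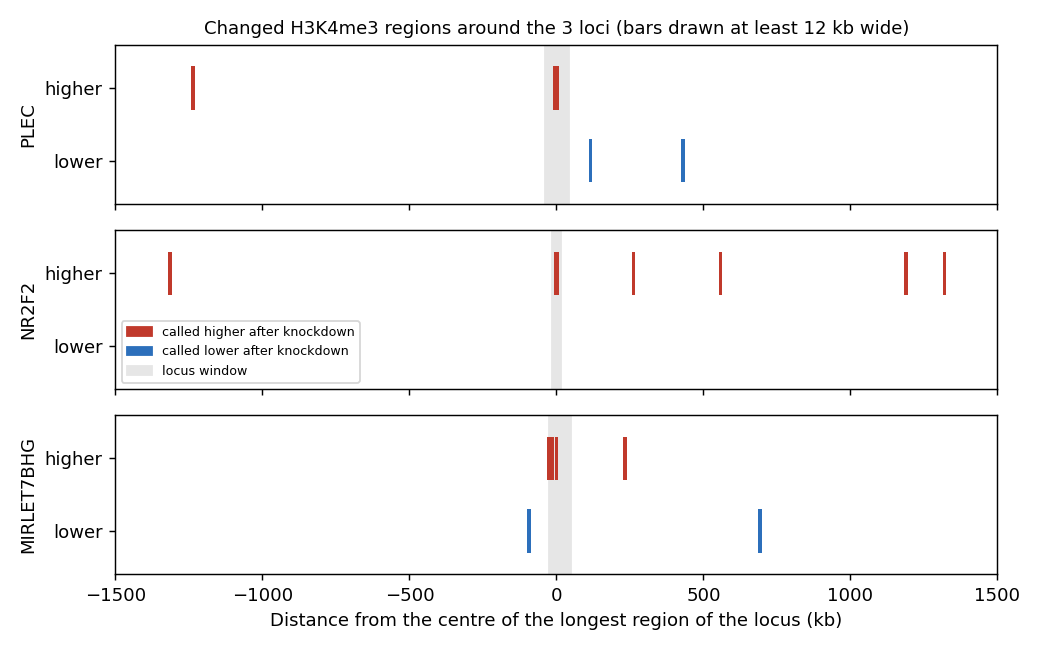
Changed H3K4me3 regions within 1500 kb of the longest region of each locus, with distance in kb on the x axis, direction on the y axis and the locus window in grey; bars are widened to at least 12 kb to be seen. PLEC has no other higher region within 1 Mb, NR2F2 has only higher neighbours and MIRLET7BHG has a lower region 63.5 kb before it.

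The same loci were then read in the mouse lists, which the choice of the human loci did not use. The gene positions in mm9 were approximate and came from general knowledge, so regions were counted within 100 kb on each side of a locus and not tied to exons. The mouse loci were set narrower than the human windows. With the 100 kb on each side included, they reached 132.5 kb (Plec), 110.0 kb (Nr2f2) and 105.0 kb (Mirlet7bhg) from their centres. Inside the 3 mouse loci themselves, 0 regions of H3K4me3, H3K27ac or H3K27me3 were listed in either direction. Because of the widths, that count is not like for like with the human windows. No higher region of any of the 3 marks was listed within 500 kb of these loci. The regions near them were all lower, in lists that were 97.5% (H3K4me3), 91.2% (H3K27ac) and 96.9% (H3K27me3) lower.

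Within 100 kb of Plec, 1 H3K27me3 region and 1 H3K4me3 region were lower. They lay 0.0098 Mb (H3K27me3) and 0.0776 Mb (H3K4me3) from the approximate edge of the locus. The H3K27me3 region spanned 3.3 kb (mm9, chr15:75986901-75990200), and 39 of the 63 lower H3K27me3 regions were longer. The H3K4me3 region spanned 1.15 kb (chr15:75921251-75922400), with 587 of 701 lower regions longer. Both lay on the low-coordinate side of Plec, which in the GRCm38.p6 gene table is the side of BC024139 and Eppk1, a gene for the plakin epiplakin. Parp10 and Grina are on the other side. Windows of 200 kb that tile the mouse chromosomes held a changed H3K27me3 region in 0.565% of cases, a changed H3K4me3 region in 5.07% and a changed H3K27ac region in 1.44%. The stretch searched around Plec was wider than these tiles, which are mostly not at genes, so the shares are given for scale only. A lower H3K27ac region of 1.45 kb (chr15:76527501-76528950) was counted when the window was widened to 500 kb.

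Near Mirlet7bhg, 1 H3K4me3 region was lower, of 1.35 kb (mm9, chr15:85565401-85566750), and 526 of 701 lower regions were longer. It lay on the high-coordinate side of the let-7 cluster, which in the gene table is the side of Ppara, a nuclear receptor of fatty acid metabolism. No H3K27ac or H3K27me3 region was listed within 500 kb. The direction was opposite to the 3 higher human regions. However, the mouse region was outside the locus as set, which was narrower than the human window. The thresholds also differed between the lines, and the difference was not tested. Within 100 kb of the human window a lower region was listed too, the 5.45 kb one above.

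Nr2f2 had 0 listed regions of any of the 3 marks within 500 kb. The nearest H3K4me3 regions were lower ones of 1.5 kb (mm9, chr7:67148701-67150200) and 1.15 kb (chr7:86860001-86861150). The nearest H3K27me3 region, also lower, spanned 3.0 kb (chr7:75013851-75016850). H3K27ac had its nearest changed regions still farther off, a higher one of 2.4 kb (chr7:50983401-50985800) and a lower one of 0.8 kb (chr7:95489501-95490300). The second longest human gain thus had no listed counterpart in the mouse lists, which were called at a stricter threshold.

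**Figure D4:**
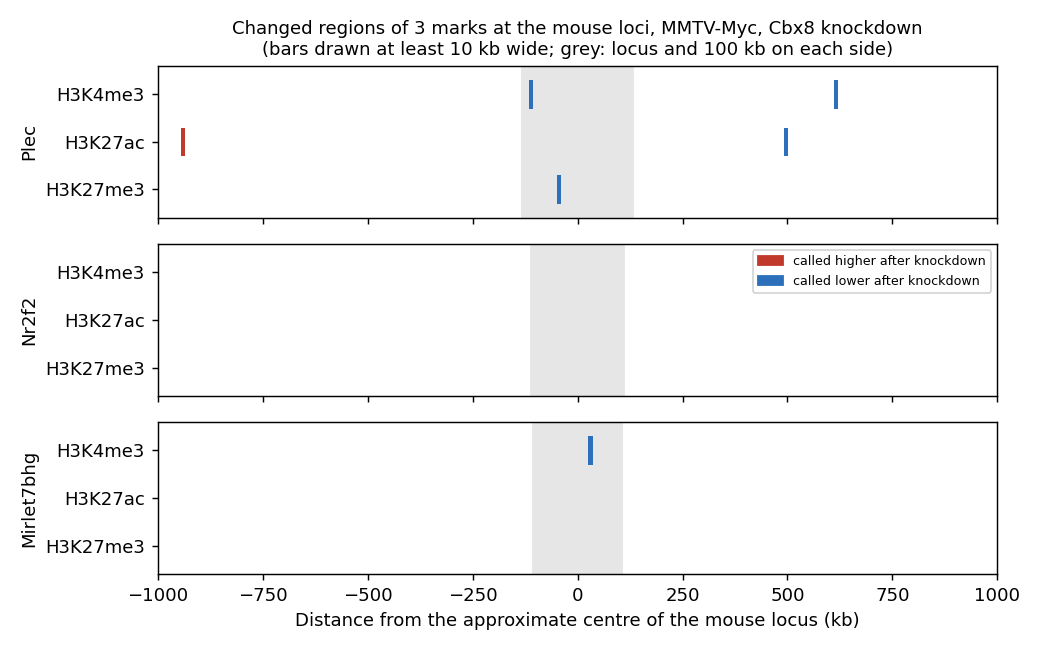
Changed regions of H3K4me3, H3K27ac and H3K27me3 (rows) within 1000 kb of the approximate centre of each mouse locus, by distance in kb, in blue where called lower and red where called higher; bars are widened to at least 10 kb, and grey marks the locus with 100 kb on each side. Lower regions lie on either side of Plec and beside Mirlet7bhg, and the Nr2f2 panel is empty. The only higher region drawn is an H3K27ac region near the left edge of the Plec panel.

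Genes related to the 3 were examined in the human lists by family: 2 other NR2F receptors, 6 plakins, the plectin-binding integrin ITGB4 and 7 other let-7 loci. Positions in hg19 were again approximate, and regions within 100 kb were counted. They were not tied to promoters, so a region counted at a locus may belong to a neighbouring gene. Of these 16 loci, 6 had a higher region, 6 had a lower one and 6 had none. One of the higher counts, at EPPK1, is the PLEC region itself, since EPPK1 is the neighbour of PLEC. Tiled windows of 200 kb held a changed region in 21.0% of cases, a higher one in 14.8% and a lower one in 7.37%. These tiles are mostly not at promoters and the loci's windows were wider, so the shares are given for scale only.

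Both other NR2F receptors had a lower region and 0 higher ones. The direction at NR2F2 was part of its choice, so no difference within the family is read from this. At NR2F1, which encodes COUP-TFI, the region spanned 8.6 kb (chr5:92914551-92923150). At NR2F6, which encodes the related receptor EAR2, it spanned 3.6 kb (chr19:17353901-17357500).

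Among the plakins other than PLEC, 1 higher region was listed apart from the PLEC region itself. DST, which encodes dystonin, had a lower region of 8.6 kb (chr6:56550701-56559300) and a higher one of 0.85 kb (chr6:56802651-56803500). A lower region of 7.25 kb (chr16:4895001-4902250) was near PPL, which encodes periplakin. MACF1, DSP (desmoplakin) and EVPL (envoplakin) had 0 listed regions. ITGB4, whose integrin binds plectin in hemidesmosomes, had a higher region of 3.4 kb (chr17:73716451-73719850) and 0 lower ones.

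The other let-7 loci were called in both directions, with 3 of 7 having a higher region, 2 a lower one and 3 none. The let-7i locus had a higher region of 2.15 kb (chr12:63024751-63026900) and let-7c one of 1.0 kb (chr21:17909101-17910100). The let-7a-1, let-7f-1 and let-7d cluster had a lower region of 5.55 kb (chr9:96927701-96933250). At let-7a-2 a higher region of 4.6 kb (chr11:122026651-122031250) was followed, after 5.9 kb, by a lower one of 15.95 kb (chr11:122037151-122053100), which belongs to the long losses of this line. The let-7e, let-7g and let-7f-2 loci had 0 listed regions.

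**Figure D5:**
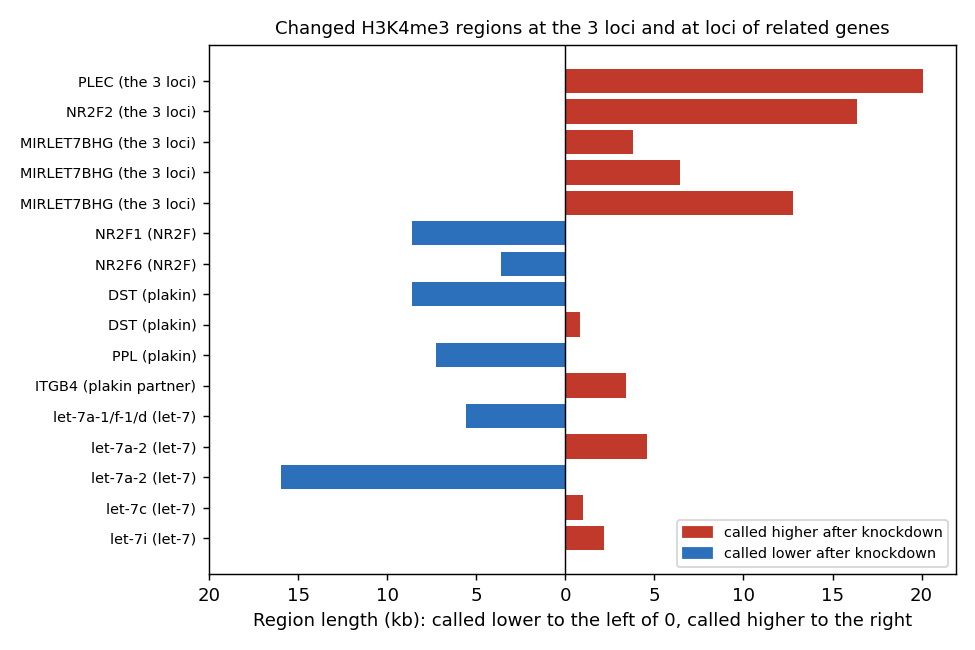
Length in kb of each changed H3K4me3 region at the 3 loci and at loci of related genes (x axis, with lower regions drawn to the left of 0 and higher regions to the right), 1 bar per region, with the family in brackets. The 5 bars of the 3 loci point right because of how the loci were chosen; among the related loci, bars for ITGB4, let-7c, let-7i, the shorter DST region and 1 let-7a-2 region point right, and those for NR2F1, NR2F6, PPL, the let-7a-1 cluster, the longer DST region and the other let-7a-2 region point left.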

How the data were processed

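ChIP-seq regions were taken from the 8 deposited lists, 2 for human H3K4me3 and 6 for the 3 mouse marks. The deposited lists give only chromosome, start and end, with no score, fold, p-value or count for a region, so depth and the size of a change are unknown. The names that the authors gave the deposited files set the mouse thresholds at 1.8-fold with q-value 1e-08, and the human one at q-value 0.002 alone. The tools named in the submitters' processing notes are SICER, MACS2 2.1.0, Bowtie 1.0.0 and FastQC 0.10.0, with builds mm9 and hg19. Which of them called the changed regions, and the handling of input libraries and depth, are not given in the sources used here. Broad calls depend on how a caller joins nearby windows, so the length of a region is partly a property of the caller.

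Every start fell on a grid of 50 bp and every end 1 bp short of it, so ends were read as included; positions are printed counted from 1. An overlap needed at least 1 bp. No annotation of hg19 or mm9 was used; the human windows were given, and windows for the mouse and related loci were set from general knowledge and rounded outward. The members, windows and gene families were chosen with earlier results of these data known. The regions named are all that overlap the windows, the nearest on either side, and those at the mouse and related loci. The long higher regions set beside the members, and the longest joined stretch, were named after their values were seen. With 1 library per condition, no test was made. Interval code was tested on simulated data. Python 3.11.15, pandas 2.3.3, numpy 2.4.6 and matplotlib 3.10.9 were used.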

Additional observations from a re-analysis of the deposited data

How the results depend on the processing

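Of 39 alternative values over 13 results, 34 stayed within 1.5 times the main value, and 14 of those were counts of 0 that stayed 0. Several others could not have moved. Every member was at least 3.8 kb long, so a minimum of 2000 bp removed none. With 0 lower regions, the share of higher ones by base pairs had to stay at 100.0%. Joining could not change a locus with 1 region. The count of 34 is therefore no measure of robustness. Joining higher regions closer than 10000 bp, an alternative chosen after seeing the data, turned the 3 higher regions at MIRLET7BHG into 1. Widening the human windows by 100000 bp on each side added 1 lower region at PLEC and 1 at MIRLET7BHG, where there had been 0. The share of higher regions, 100.0% inside the windows, was 42.9% in the 1 Mb on each side, also chosen after seeing the data. Tiles of 20 kb in place of 80 kb held a changed region in 2.88% of cases, as smaller tiles must. No paired analysis was possible because each group has 1 library. Without read counts, the size of any gain, the depth behind it or changes under the threshold could not be judged.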

Other observations

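Opposite calls side by side, as at let-7a-2, were the smallest group of close pairs. Of 141 pairs of neighbouring human regions less than 10 kb apart, 85 were both higher, as at MIRLET7BHG, 32 were both lower and 24 (17.0%) were opposite. Of all 3828 neighbouring pairs, 34.9% were opposite. A stretch called in pieces, as at MIRLET7BHG, adds close pairs of the same direction. Both shares therefore depend on how the caller joins nearby windows, and nothing is read from their difference. In 21 of the 24 close opposite pairs the lower region was the longer one, as at let-7a-2, with median lengths of 2.7 kb for the higher and 5.82 kb for the lower member. Lower regions are longer throughout the human lists, with medians of 4400 bp against 1750 bp, so nothing particular to close pairs is read from this. These counts were made after the let-7a-2 pair had been seen, take regions as units and were not tested.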
